A study of Homo sapiens with 6 samples.

Results

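The genes described here are the Notch target HES1 and members of the Notch pathway around it: the repressors HES4 and HEY2, the feedback regulator NRARP, the receptors NOTCH1, NOTCH2 and NOTCH3, and the ligands JAG1 and JAG2. Of 10 gene names listed, 9 were found among the 20333 gene intervals of the table, and all 9 passed the filter on low counts. HEY1, the remaining name, was not analysed here. The list was drawn up by name with earlier results of these data known, and a gene was kept when it was selected on its raw count, at least 10 in 1 or more libraries. The lowest of the 9 was JAG1, with 146 to 247 counts, so no member lay near that limit.

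In the Notch pathway, a membrane ligand of the Jagged or Delta type on one cell binds a Notch receptor on its neighbour. The receptor is then cut, first by an ADAM protease and then by gamma-secretase, and its intracellular part travels to the nucleus, where it joins the DNA-binding protein RBPJ and a Mastermind coactivator. The genes they switch on include HES and HEY repressors, basic helix-loop-helix proteins that silence other genes, and NRARP, which dampens the pathway. In the mammary gland Notch signalling is known for its part in luminal cell fate.

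All libraries came from T47D, a breast cancer line of luminal type labelled ERpos HER2neg (estrogen receptor positive, HER2 negative). They were kept in medium with growth factors and treated for 5 h with DMSO (the solvent), 500 nM GDC0068 or 100 nM INY-05-040. GDC0068 inhibits the catalytic activity of the AKT kinases, whereas INY-05-040, named Degrader in the sample titles and below, removes AKT protein. The series states that these doses were picked to suppress signalling downstream of AKT to a similar degree. Each of the 3 arms had 2 libraries of nascent RNA made by precision run-on sequencing (PRO-seq), in which engaged RNA polymerases are allowed to extend their transcripts, so counts in a gene report polymerases at work on it and not the amount of mature RNA.

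Library totals ranged from 25371819 to 32192576 counts. All 10 luminal markers looked up, among them ESR1, GATA3 and KRT19, were transcribed in every library, with a summed level of 5725 to 6095 CPM. CPM is the count of a gene relative to the total of its library, unscaled for the cell type markers and scaled for all other genes. Of 16 markers of basal, fibroblast, leukocyte and endothelial cells, 15 were not analysed here, and CD14 stood at 0.347 to 0.558 CPM. A gene was called at an edgeR adjusted p under 0.05 over all 19902 genes tested, and an interval is the 95% confidence interval from the same fit. Changes are relative to the bulk of genes. Replicate libraries are not stated to be separate cultures beyond the description of 2 independent experiments, so p-values measure the spread between these libraries.

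Whether HES1 moved alone was asked for each drug. Under GDC0068, HES1 was the member that rose and NOTCH1 and JAG2 fell, while the other 6 members were not called. This made 3 of 9 called, 1 higher and 2 lower, beside 3.58% of all genes called in that contrast (1.7% higher and 1.88% lower). Under Degrader, HES1 was not called, and NOTCH1, NOTCH3 and JAG2 fell, so that 3 of 9 were called and all were lower, beside 15.3% of all genes (7.39% higher and 7.88% lower). Between the drugs, HES1 and JAG2 were lower under Degrader, making 2 of 9, beside 0.266% of all genes (0.116% higher and 0.151% lower). Since the list was drawn up with results known, and HES1 heads it because its difference between the drugs was known, these counts and the values of HES1 describe the list and support nothing beyond it. The median log2 fold change of the 9 was 0.05 under GDC0068, -0.18 under Degrader and -0.21 between the drugs, beside 0.01, 0.00 and 0.00 over all genes. With the replicate number as a block in the fit, 4 of 9 members were called under GDC0068 (17.8% of all genes), 4 of 9 under Degrader (30.7%) and 5 of 9 between the drugs (10.4%). Both contrasts with DMSO use the same 2 DMSO libraries.

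**Figure D1:**
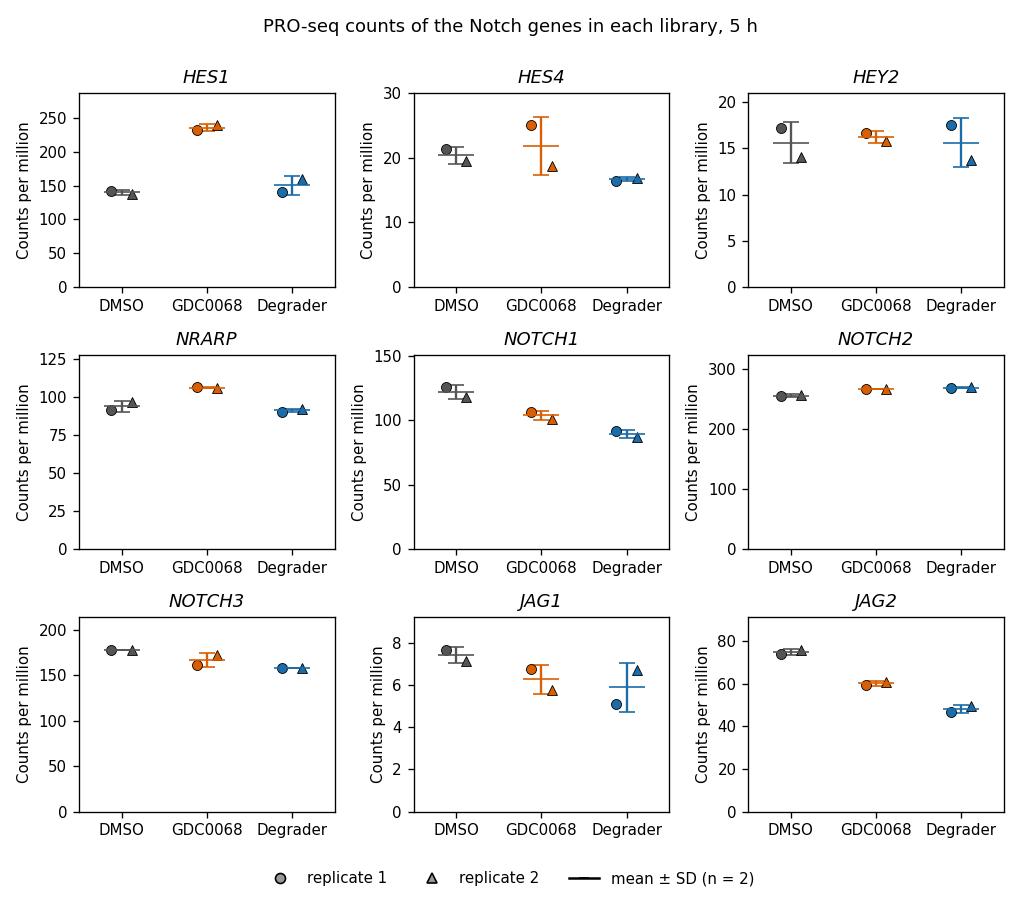
Each panel shows 1 gene in CPM on an axis from 0, with a circle for replicate 1, a triangle for replicate 2 and a bar for the mean ± SD (n = 2) of each arm. Both GDC0068 libraries of HES1 lie at 232 and 239 CPM, above all 4 other libraries, whereas NOTCH1 and JAG2 step down from DMSO through GDC0068 to Degrader.

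HES1 (ENSG00000114315, chromosome 3, 194136148 to 194138732, plus strand, positions as the table gives them) encodes a transcriptional repressor that is a classic direct target of Notch. Its interval of 2585 bp overlapped no other interval of the table. The sequence just before its start is shown because it holds the letters that RBPJ, the DNA-binding partner of cleaved Notch, is known to recognise, and that of HES4 is set beside it because both genes encode HES repressors and differed in their response. Capitals mark the RBPJ core TGGGAA, searched on both strands, in the 150 bases before the RefSeq start site (GRCh38.p14, 5′ to 3′ on the strand of the gene). The printed stretch of HES1 lies at chr3:194135998-194136147 on the plus strand and that of HES4 at chr1:1000098-1000247 on the minus strand.
HES1: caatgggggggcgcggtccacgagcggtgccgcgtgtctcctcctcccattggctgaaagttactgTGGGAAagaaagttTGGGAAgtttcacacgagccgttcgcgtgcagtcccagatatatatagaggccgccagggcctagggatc
HES4: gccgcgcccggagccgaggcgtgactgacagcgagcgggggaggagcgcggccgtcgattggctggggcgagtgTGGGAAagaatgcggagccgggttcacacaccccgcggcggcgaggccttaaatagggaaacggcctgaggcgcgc

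HES1 held 2 RBPJ cores, which begin 84 and 70 bases before the start site and run in the direction of the gene. HES4 held 1, beginning 76 bases before its start site. In the full window of 300 bases (250 before and 50 after the start site) HEY2 also held 2, beginning 213 and 3 bases upstream, and the other 6 members held 0. Of 35116 RefSeq promoters of that length, 24.0% held at least 1 such core and 3.80% at least 2. The N-box CACNAG (N is any base), a motif that HES proteins are known to bind, occurred 4 times in the HES1 window, and 1.51% of all promoters held 3 or more. NOTCH1 held 2 N-boxes, which begin at positions -1 and 2 from the start site on opposite strands and overlap each other. NRARP, NOTCH2 and NOTCH3 held 1 each, and the other 4 members held 0. Neither the E-box CACGTG, found in 7.26% of all promoters, nor the forkhead motif TGTTTAC, found in 3.42%, occurred in any of the 9 windows. All motifs were searched on both strands, none of the RBPJ cores overlapped an N-box, and a match is a description of the letters only.

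**Figure D2:**
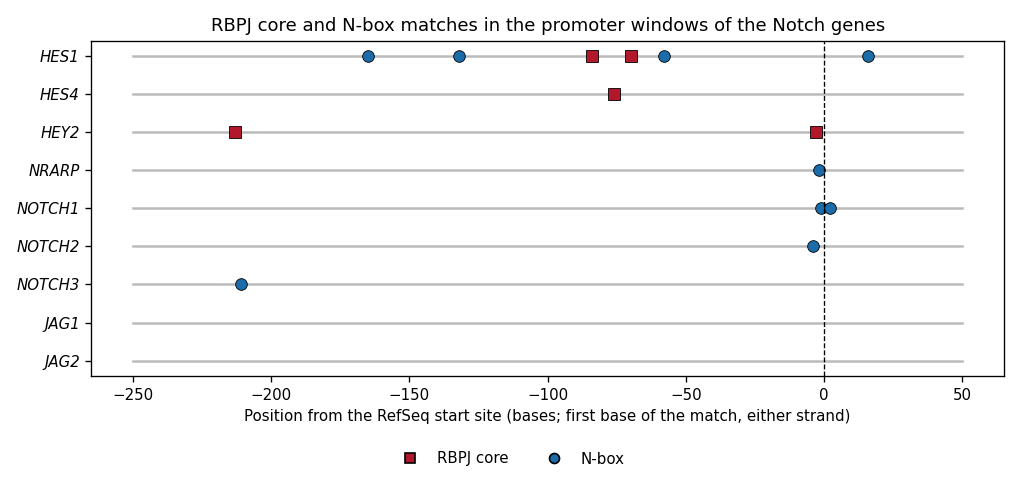
Each row is the window of 1 gene, drawn as bases from its RefSeq start site (dashed line), with red squares for RBPJ cores and blue circles for N-boxes on either strand. HES1 shows 2 RBPJ cores and 4 N-boxes, HES4 1 RBPJ core, HEY2 2 RBPJ cores, and the ligand genes JAG1 and JAG2 neither motif.

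HES1 stood at 142 and 138 CPM in the DMSO libraries, at 232 and 239 CPM under GDC0068, and at 141 and 159.8 CPM under Degrader. Both GDC0068 libraries were above all 4 others, and the Degrader libraries overlapped those of DMSO. Its mean was 140.0 ± 3.19 CPM with DMSO, 236 ± 5.11 with GDC0068 and 150.3 ± 13.5 with Degrader (SD, n = 2). Under GDC0068 HES1 rose by 68.3%, or 0.75 on the log2 scale (SE 0.0612, interval 0.62 to 0.88, edgeR adjusted p = 3.42e-04). By unadjusted p it ranked 3 of 19902 genes in that contrast, and by size of increase 105.

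Under Degrader the log2 fold change of HES1 was 0.10 (SE 0.0615, interval -0.03 to 0.24, edgeR adjusted p = 0.298), and the upper end of the interval was a 1.18-fold level. With the replicate block the interval was 0.01 to 0.18, which excludes 0, and HES1 was again not called (edgeR adjusted p = 0.0709). The Degrader libraries differed: against the DMSO library of the same number, the log2 ratio was -0.02 in replicate 1 and 0.21 in replicate 2. Without Degrader replicate 2 the change was 0.00, and without Degrader replicate 1 it was 0.19 (adjusted p between 0.0709 and 0.998 over the 16 alternatives). In the direct contrast, HES1 was 36.2% lower under Degrader than under GDC0068, or -0.65 on the log2 scale (SE 0.0611, interval -0.78 to -0.52, edgeR adjusted p = 0.00177), and it ranked 2 of 19902 by unadjusted p. The log2 ratio of the drugs was -0.72 in replicate 1 and -0.58 in replicate 2.

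Under GDC0068 against DMSO, the interval of the HES1 change (0.62 to 0.88) lay above that of each of the 8 other members. Their upper ends reached at most 0.37, in HES4.

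NRARP (ENSG00000198435, chromosome 9, 137299631 to 137302271, minus strand) encodes a small ankyrin repeat protein that is induced by Notch and limits it. It stood at 91.4 and 96.3 CPM in DMSO, at 106 CPM in both GDC0068 libraries, and at 90.3 and 91.9 CPM under Degrader. Both GDC0068 libraries were the highest, as for HES1, but the difference was smaller: a log2 fold change against DMSO of 0.18 (SE 0.0495, interval 0.07 to 0.28), not called (edgeR adjusted p = 0.0727). With the replicate block it was called (edgeR adjusted p = 0.00175). Between the drugs it was -0.22 (interval -0.33 to -0.11, edgeR adjusted p = 0.0943), called with the block (edgeR adjusted p = 5.22e-04). Under Degrader against DMSO it was -0.04 (interval -0.15 to 0.07). The NRARP interval overlaps 559 bp of BX255925.4 on the opposite strand.

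HES4 (ENSG00000188290, chromosome 1, 998964 to 1000097, minus strand), another repressor of the HES family, stood at 21.3 and 19.4 CPM in DMSO, at 25.0 and 18.7 CPM under GDC0068 and at 16.5 and 16.9 CPM under Degrader. The GDC0068 libraries lay on either side of the DMSO pair, and both Degrader libraries were the lowest. Its log2 fold change was 0.09 under GDC0068 (interval -0.18 to 0.37, edgeR adjusted p = 0.725), -0.29 under Degrader (interval -0.56 to -0.01, edgeR adjusted p = 0.150) and -0.38 between the drugs (interval -0.66 to -0.11, edgeR adjusted p = 0.211). With the block the last 2 were called (edgeR adjusted p of 0.0237 and 0.0108). Without GDC0068 replicate 1 the change under GDC0068 was -0.13, and the change between the drugs was -0.16.

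HEY2 (ENSG00000135547, chromosome 6, 125749725 to 125761269, plus strand), a HEY repressor known from heart and vessel development, stood at 17.2 and 14.0 CPM with DMSO, at 16.7 and 15.8 with GDC0068 and at 17.5 and 13.7 with Degrader. The arms overlapped throughout. Its intervals ran from -0.24 to 0.34 under GDC0068 and from -0.29 to 0.28 under Degrader (edgeR adjusted p of 0.874 and 0.986), so changes of the size of that of HES1 under GDC0068 lay outside both.

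**Figure D3:**
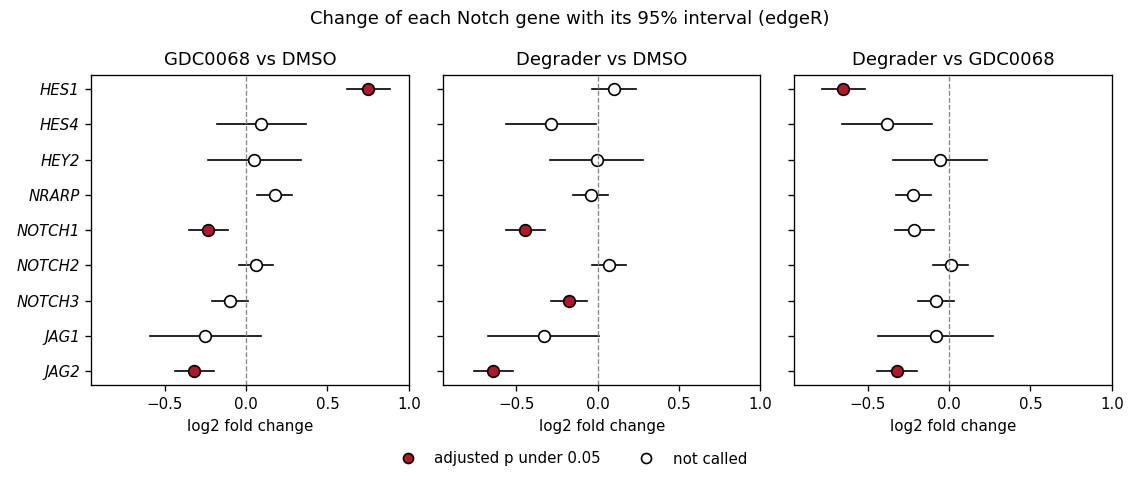
Points are log2 fold changes and lines their 95% intervals for the 9 genes in 3 contrasts, with filled points for genes called at an adjusted p under 0.05. HES1 stands to the right of all other genes under GDC0068 (0.75) and near 0 under Degrader (0.10), whereas JAG2 lies left of 0 in each contrast (-0.32, -0.64 and -0.32).

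The receptor and ligand genes that were called all stood below DMSO. NOTCH1 (ENSG00000148400, chromosome 9, 136494433 to 136546048, minus strand) encodes the best known of the receptors. It stood at 126 and 118 CPM in DMSO, 107 and 101 CPM under GDC0068, and 91.9 and 87.2 CPM under Degrader. No library of 1 arm overlapped those of another. NOTCH1 fell by 26.5% under Degrader, or -0.44 on the log2 scale (SE 0.0544, interval -0.56 to -0.33, edgeR adjusted p = 5.65e-04). Under GDC0068 it fell by 14.8%, or -0.23 on the log2 scale (SE 0.0541, edgeR adjusted p = 0.0407), a call lost in the fit to the 4 libraries compared (edgeR adjusted p = 0.0520) and without any 1 library (0.0504 to 0.246). Between the drugs the change was -0.21 (interval -0.33 to -0.09, edgeR adjusted p = 0.128), a call gained with the replicate block (adjusted p by edgeR = 4.93e-04). The interval of the neighbouring transcript NALT1 lies 382 bp away on the opposite strand, without overlap. NALT1 had log2 fold changes of -0.43 under Degrader and -0.23 under GDC0068 (edgeR adjusted p of 0.0566 and 0.373). It was called lower in both with the block (edgeR adjusted p of 8.01e-05 and 0.0432). The use of strand in counting is not stated, and its part in these values was not tested.

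NOTCH3 (ENSG00000074181, chromosome 19, 15159038 to 15200996, minus strand), a receptor linked to luminal progenitors, stood at 178 CPM in both DMSO libraries, at 161 and 172 CPM with GDC0068 and at 158 CPM in both Degrader libraries. It fell by 11.5% under Degrader (log2 fold change -0.18, SE 0.0500, edgeR adjusted p = 0.0345). That call was lost with DESeq2 (adjusted p = 0.0568) and without any 1 DMSO or Degrader library (edgeR adjusted p of 0.118 to 0.163). Under GDC0068 the log2 fold change was -0.10 (interval -0.21 to 0.01, edgeR adjusted p = 0.305).

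NOTCH2 (ENSG00000134250, chromosome 1, 119911553 to 120069627, minus strand) was the member with the most counts per library. It stood at 254 and 257 CPM with DMSO, at 267 and 266 with GDC0068 and at 268 and 269 with Degrader. Both drugs' libraries were above the DMSO pair, by 0.06 and 0.07 on the log2 scale (intervals -0.05 to 0.17 and -0.04 to 0.18), and neither was called (edgeR adjusted p of 0.530 and 0.367). NOTCH2 shares near-identical sequence with NOTCH2NLA, NOTCH2NLB and NOTCH2NLC, which stood at 192, 150.2 and 83.5 CPM in DMSO, so reads of one copy could be assigned to another.

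JAG2 (ENSG00000184916, chromosome 14, 105140995 to 105168728, minus strand), a ligand of the Jagged type, showed the largest decrease among the 9 genes under each drug. It stood at 73.8 and 76.0 CPM with DMSO, at 59.4 and 60.8 with GDC0068 and at 46.7 and 49.5 with Degrader. The arms did not overlap, with DMSO highest and Degrader lowest. JAG2 fell by 35.8% under Degrader, or -0.64 on the log2 scale (SE 0.0555, interval -0.76 to -0.52, edgeR adjusted p = 1.04e-04), which ranked 19 of 19902 genes by unadjusted p. Under GDC0068 it fell by 19.7%, or -0.32 on the log2 scale (SE 0.0549, interval -0.44 to -0.20, edgeR adjusted p = 0.0138), a call lost without any 1 of the DMSO or GDC0068 libraries (edgeR adjusted p of 0.0594 to 0.0855). Between the drugs it was 20.0% lower under Degrader, or -0.32 on the log2 scale (SE 0.0562, edgeR adjusted p = 0.0450). That call was lost with limma voom (adjusted p = 0.0580), with 4 libraries fitted (edgeR adjusted p = 0.0858) and without any 1 library (edgeR adjusted p of 0.0809 to 0.267).

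JAG1 (ENSG00000101384, chromosome 20, 10637684 to 10673999, minus strand), the other Jagged ligand, was the least transcribed member. It stood at 7.69 and 7.17 CPM with DMSO, at 6.77 and 5.78 with GDC0068 and at 5.08 and 6.72 with Degrader. All 4 drug libraries were below the DMSO pair, and the drugs overlapped each other. Its log2 fold changes of -0.25 under GDC0068 (interval -0.59 to 0.09) and -0.33 under Degrader (interval -0.67 to 0.01) were not called (edgeR adjusted p of 0.405 and 0.180). The change under Degrader was -0.15 without Degrader replicate 1 and -0.56 without Degrader replicate 2, and the change under GDC0068 was -0.14 without GDC0068 replicate 2. At its lowest count of 146, counting error alone is 8.28%, and both intervals include the decrease seen in JAG2 under GDC0068.

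Per length, the 3 members with the shortest intervals, HES1, NRARP and HES4, stood highest in DMSO. HES1 stood at 54.2 ± 1.23 CPM per kb, NRARP at 35.5 ± 1.33, HES4 at 18.0 ± 1.19, NOTCH3 at 4.25 ± 0.00296, JAG2 at 2.70 ± 0.0558, NOTCH1 at 2.36 ± 0.104, NOTCH2 at 1.62 ± 0.0125, HEY2 at 1.35 ± 0.194 and JAG1 at 0.205 ± 0.0101 CPM per kb (SD, n = 2). NOTCH2 and HEY2 were the neighbours whose levels differed by less than 2 of the larger SD. Under GDC0068, HES1 reached 91.1 ± 1.98 CPM per kb. Polymerases paused near the start weigh more in a short interval than in a long one, and the part of each gene that was counted is not stated.

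The rest of the pathway was examined through lists of other Notch genes by role, 65 names of which 52 were tested. Under Degrader 8 of the 52 were called, 4 higher and 4 lower, a share near the 15.3% of all genes called there, and the median log2 fold change of the 52 was 0.07, beside 0.00 over all genes. Under GDC0068 3 were called, 2 higher and 1 lower, beside 3.58% of all genes, with a median of 0.03 beside 0.01 over all genes. Between the drugs 0 were called by edgeR, beside 0.266% of all genes (DESeq2 called 1 and limma voom 0). An unadjusted p under 0.05 was found there in 6 of the 52, beside 2811 of all 19902 genes. The largest increase over DMSO among the 52 was 0.43 under Degrader and 0.31 under GDC0068, so none reached the 0.75 of HES1 under GDC0068. With the replicate block 24 of the 52 were called under Degrader (13 higher, 11 lower), where 30.7% of all genes were. The blocked fit called 14 under GDC0068 (10 higher, 4 lower), beside 17.8% of all genes, and 4 between the drugs (2 higher, 2 lower), beside 10.4%.

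Among the genes of the proteases that cut the receptor, PSEN2, which encodes a catalytic subunit of gamma-secretase, fell under Degrader. PSEN2 (chromosome 1, 226870620 to 226896098) stood at 65.1 and 58.2 CPM in DMSO and 46.4 and 41.3 CPM under Degrader, and fell by 29.0% (log2 fold change -0.49, SE 0.0721, edgeR adjusted p = 0.00135). Its difference from DMSO under GDC0068, -0.14 on the log2 scale, was not called (edgeR adjusted p = 0.304). Between the drugs PSEN2 changed most among the 52 genes, by -0.35 (edgeR adjusted p = 0.0755), and it was called with DESeq2 (adjusted p = 0.0290), with robust estimation (edgeR adjusted p = 0.0461) and with the block (edgeR adjusted p = 6.05e-05). HES2 and HES6 came next with -0.30 and -0.23 (edgeR adjusted p of 0.309 and 0.342). Leaving out 1 library moved HES2 between -0.42 (without Degrader replicate 2) and -0.19 (without Degrader replicate 1). It moved HES6 between -0.39 and -0.075 (the same libraries), with -0.35 without GDC0068 replicate 2 and -0.084 without GDC0068 replicate 1. HES2 stood at 9.87 and 9.48 CPM in DMSO and 6.51 and 7.58 CPM under Degrader and was among the 8 called there (log2 fold change -0.46, SE 0.123, edgeR adjusted p = 0.0287; lost with DESeq2 at an adjusted p of 0.0584 and without any 1 DMSO or Degrader library). HES2 and HES6 belong to the HES family, as does HES1.

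In the nuclear complex, the Mastermind coactivator gene MAML3 rose under both drugs. It stood at 99.1 and 89.2 CPM with DMSO, at 116 and 110.4 with GDC0068 and at 124 and 116 with Degrader, changes of 0.27 (SE 0.0610, edgeR adjusted p = 0.0378) and 0.35 (SE 0.0608, edgeR adjusted p = 0.00361). RBPJ itself was not called, with log2 fold changes of -0.02 and 0.11 (edgeR adjusted p of 0.872 and 0.262). Of the 6 tested genes of this complex, 1 was called under Degrader (15.3% of all genes) and 1 under GDC0068 (3.58%). With the block 4 of the 6 were called under Degrader (30.7% of all genes) and 1 under GDC0068 (17.8%).

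Among 11 corepressor genes, TLE3 fell under both drugs and CIR1 rose under Degrader. TLE3, whose product is recruited by HES proteins, stood at 214 and 219 CPM with DMSO, at 176 and 191 with GDC0068 and at 177 and 176 with Degrader, changes of -0.24 (SE 0.0526, edgeR adjusted p = 0.0339) and -0.29 (SE 0.0526, edgeR adjusted p = 0.00394). CIR1, which encodes a corepressor that binds RBPJ, stood at 27.8 and 27.9 CPM in DMSO and 36.0 and 39.1 CPM under Degrader, a change of 0.43 (SE 0.0752, edgeR adjusted p = 0.00349) that was not called without Degrader replicate 2 (0.36, edgeR adjusted p = 0.0570). With the block CIR1 was also called higher under GDC0068 (0.21, edgeR adjusted p = 0.0249) and higher under Degrader than under GDC0068 (0.22, edgeR adjusted p = 0.0316).

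The ID genes encode helix-loop-helix proteins without a DNA-binding part, which pair with basic helix-loop-helix factors. They were listed with BHLHE40, a DNA-binding repressor, and of these 5 tested genes 1 was called under each drug (3.58% of all genes under GDC0068 and 15.3% under Degrader). With the block 4 of the 5 were called under GDC0068, all higher, and 1 under Degrader, beside 17.8% and 30.7% of all genes. ID3 rose under GDC0068 from 72.0 and 68.2 CPM to 81.1 and 84.5 CPM, or 0.24 on the log2 scale (SE 0.0533, edgeR adjusted p = 0.0349), lost with DESeq2 (adjusted p = 0.0603). With the block ID3 was also called lower under Degrader than under GDC0068 (-0.15, edgeR adjusted p = 0.0283). The calls of MAML3, TLE3 and ID3 under GDC0068 were all lost with 4 libraries fitted (edgeR adjusted p of 0.0520, 0.0558 and 0.0579). That fit called 528 of all genes, beside 712 in the main fit. These calls were also lost without any 1 library, where fewer of all genes were called too. In those fits the changes were 0.19 to 0.34 for MAML3, -0.30 to -0.18 for TLE3 and 0.20 to 0.28 for ID3. ID2 was called under Degrader, by 0.32 on the log2 scale (edgeR adjusted p = 0.0179), and with the block also under GDC0068 (0.24, edgeR adjusted p = 0.0141). Also called under Degrader was MFNG, a glycosyltransferase gene that modifies Notch, with -0.35 (edgeR adjusted p = 0.0362). ID2 and MFNG were named after their values were seen. In the lists of ligands (DLL1 and DLL4, 2 tested) and of ubiquitin and trafficking regulators (11 tested), 0 genes were called by edgeR in any contrast without the block. Of the 11 regulators, 4 had an unadjusted p under 0.05 under Degrader and 1 under GDC0068, beside 5948 and 3972 of all 19902 genes. With the block 5 of the 11 regulators were called under Degrader (4 higher, 1 lower) and 1 under GDC0068 (higher), beside 30.7% and 17.8% of all genes.

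**Figure D4:**
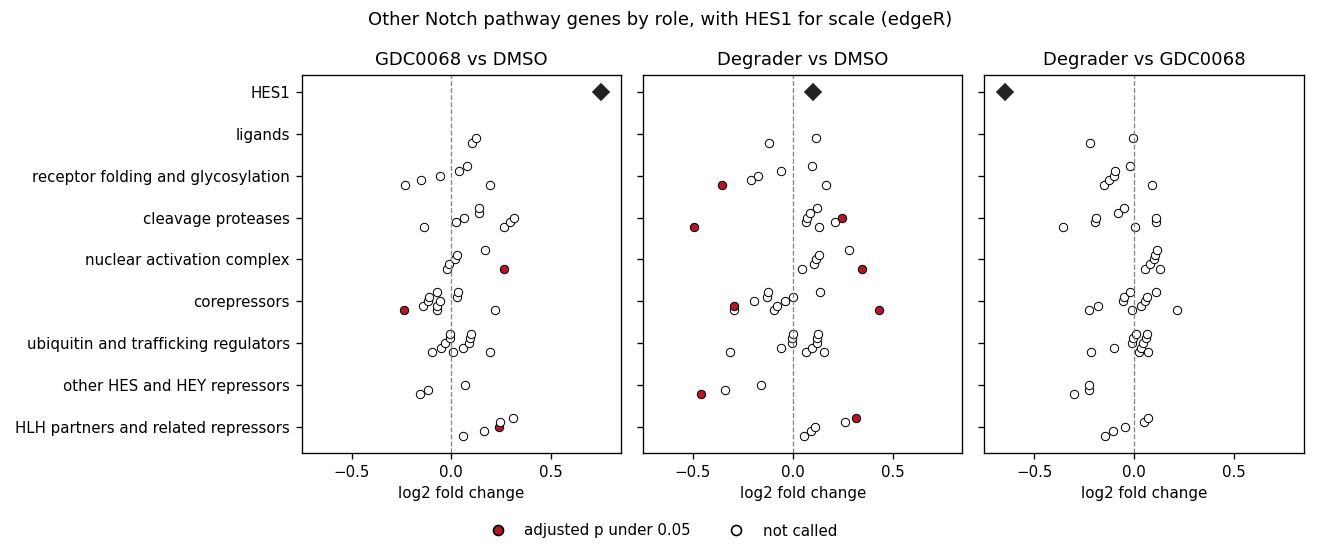
Each point is 1 gene of the other Notch lists, placed by its log2 fold change and grouped by role in 3 contrasts, with filled points for genes called at an adjusted p under 0.05 and a diamond for HES1. The HES1 diamond lies at 0.75 under GDC0068, beyond the highest other point at 0.31, and at 0.10 under Degrader, among the other points.

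The genes most like HES1 were those with the highest Pearson's r of log2 CPM with it over the 6 libraries, out of 13896 genes that averaged 10 CPM or more. They were TENT5B (r = 0.992), AC093510.1 (0.988), AL136038.5 (0.987), POLR2K (0.983) and AC100830.1 (0.981). The 6 libraries share 3 arms, so r reflects the arm means as well as the single libraries. All 5 had smaller differences than HES1: TENT5B stood at 51.5 and 51.9 CPM with DMSO, at 59.1 and 59.0 with GDC0068 and at 50.9 and 53.1 with Degrader. Their log2 fold changes under GDC0068 were 0.19 to 0.32. The 5 were picked because they follow HES1 over these same libraries, and HES1 was high only under GDC0068. A higher level under GDC0068 than in the other arms therefore follows from the choice, and no test is read from these genes. Of the members, NRARP was the most like HES1 (r = 0.916), followed by NOTCH2 (0.478) and HES4 (0.444), and the lowest was JAG1 (-0.173).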

How the data were processed

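PRO-seq libraries of T47D cells were analysed as raw counts per gene interval, deposited by the authors as 1 table with a column per library. Per the submitters' processing notes, cutadapt 1.14, Bowtie 1.2.2, SAMtools 1.3.1, HISAT2 2.2.1 and limma were used, and the builds hg38, GRCh38 and dm3 (fruit fly) are named, with no role or order given. The part of a gene counted, the use of strand, the removal of duplicates and any spike-in scaling are not given in the sources used here. Each of these could change a count. Coordinates are those of the table, which names no build, counted from 1. RefSeq start sites of GRCh38.p14 lay 0 to 93 bp from those of the table for the 9 members. Promoter sequences come from RefSeq, and 9 of 9 members matched.

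The members and lists were chosen with earlier results of these data known. Named are all members, of the other pathway lists up to 5 called genes per contrast with the smallest adjusted p (the 3 largest changes where 0 were called), the 5 genes most like HES1, and genes that overlap a member. A result that this rule would name is not reported here. Groups and replicate numbers come from the labels. Counts were fitted in R 4.3.3 with edgeR 4.0.16 (filterByExpr with a minimum count of 10, TMM factors from 0.997 to 1.003, the quasi-likelihood functions glmQLFit and glmQLFTest, all 6 libraries together, each arm its own term, 3 residual degrees of freedom). The filter removed 431 genes and left 19902. P-values were adjusted by Benjamini-Hochberg over those genes. The SE is the size of the log2 fold change over the square root of F. CPM use TMM-scaled library sizes, except those of the cell type markers, which use unscaled totals. Like-HES1 genes used log2 CPM with a prior count of 2. No permutation test of 2 against 2 libraries can go below p = 0.333. The fit was tested on simulated data.

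Alternatives were DESeq2 1.42.0, limma 3.58.1 (voom), other scalings and filters, robust estimation, the 4 libraries compared, the replicate number as a block and each library left out. The series describes 2 independent experiments, which the replicate numbers are taken to mark. Deviations of same-numbered libraries from their arm means correlated across genes with r of 0.177, 0.220 and 0.204 for the 3 pairs of arms, so blocked values stand beside results whose call they change.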

Additional observations from a re-analysis of the deposited data

Results flagged for a closer look

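For 2 members the effects of the drugs differed from each other in the direct contrast. HES1 was lower under Degrader than under GDC0068 with a change of -0.65 on the log2 scale (edgeR adjusted p = 0.00177), with both Degrader libraries below both GDC0068 libraries. JAG2 was also lower under Degrader, with -0.32 (edgeR adjusted p = 0.0450), again with separated libraries. The pair differs in its relation to DMSO: the GDC0068 libraries of HES1 were above DMSO and the Degrader libraries overlapped it, whereas JAG2 was below DMSO under both drugs.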

How the results depend on the processing

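Over 16 alternatives per contrast, HES1 stayed called under GDC0068 (log2 fold change 0.72 to 0.77, edgeR, limma or DESeq2 adjusted p of at most 0.00771) and between the drugs (-0.75 to -0.56, at most 0.0304), and it was never called under Degrader (0.00 to 0.19). Under Degrader, 3 members were called in the main fit, 2 with DESeq2 and 4 with the replicate block. Over all genes these fits called 3039, 2271 and 6114. With the replicate block, 5 members were called between the drugs, as were 24 of the other pathway genes under Degrader, 14 with GDC0068 and 4 between the drugs. It ended no call of a member. In the fit to the 4 libraries compared, 0 other pathway genes were called by edgeR under GDC0068 (13 with an unadjusted p under 0.05). Over all genes 528 were called there, beside 712 in the main fit. Between the drugs 1 member was called with 4 libraries, beside 23 of all genes, and 1 with limma voom, beside 54 of all genes. DESeq2 and robust estimation each called 1 other pathway gene between the drugs, beside 141 and 116 of all genes. Leaving out 1 library gave 1 to 2 members under GDC0068, 1 member between the drugs, 4 to 9 other genes under Degrader (4 without DMSO replicate 1 or Degrader replicate 2) and 0 under GDC0068. In those fits 1 arm has a lone library, assumed to vary like the others. Under GDC0068, each of them also called fewer of all genes than the main fit, so the drop was not limited to Notch genes. Under Degrader, fits without a DMSO or Degrader library called fewer of all genes, and those without a GDC0068 library called more. Between the drugs, each called fewer of all genes except the fit without GDC0068 replicate 2. Directions that turned when 1 library was left out all belong to uncalled changes: HEY2 under Degrader (-0.19 to 0.15), under GDC0068 (-0.085 to 0.205) and between the drugs (-0.24 to 0.11), HES4 under GDC0068 (-0.13 to 0.29), HES6 under GDC0068 (-0.074 to 0.195), JAG1 between the drugs (-0.30 to 0.11) and TLE3 between the drugs (-0.11 to 0.010). The cause was not tested. Depth limits JAG1 most, at 146 to 247 counts.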

Other observations

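Some neighbours of the members also changed, and those named were chosen after their values were seen. Of the transcripts within 5 kb, AL645608.7, which lies 1735 bp from HES4 on the same strand, was lower under Degrader (log2 fold change -0.52, SE 0.0912, edgeR adjusted p = 0.00358) and also with GDC0068 (-0.47, SE 0.0913, edgeR adjusted p = 0.0207). ISG15, an interferon-stimulated gene whose interval lies 163 bp from that of HES4 on the opposite strand, was lower under Degrader (-0.37, SE 0.0849, edgeR adjusted p = 0.0137). Under GDC0068 ISG15 had -0.22 (edgeR adjusted p = 0.176), called with the block (0.000686), as was its difference between the drugs, -0.15 (0.452, and 0.0227 with the block). BX255925.1, which lies 3632 bp from NRARP on the same strand, was higher under Degrader (0.53, SE 0.161, edgeR adjusted p = 0.0468). With GDC0068 BX255925.1 had 0.43 (edgeR adjusted p = 0.163), called with the block (0.0203). AC080129.2, 4935 bp from HES1 on the opposite strand, had 78 to 117 counts and log2 fold changes of -0.21 under GDC0068 and -0.32 under Degrader (edgeR adjusted p of 0.571 and 0.264), so it did not rise with HES1.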
